A study of Mus musculus with 24 samples.

Results

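The interferon-stimulated antiviral genes described here are 36 genes that type I interferon induces in many cell types. They were taken as a list fixed by symbol, without the Gbp, Ifi200, Irf and Stat genes, and all 36 were found among the 39017 genes of the count table. RNA was sequenced from dendritic cells sorted by flow cytometry from spleens of C57BL/6 x FVB/N F1 mice. Mice were Flt3 +/+ (WT) or Flt3 ITD/+ (ITD). The duplication (ITD) lengthens Flt3, a receptor tyrosine kinase that dendritic cells need to develop, and ITD mice carried it on 1 of their 2 alleles. The 5 sorted subsets, as the labels name them, were PDC, C_CD8 (canonical CD8+), NC_CD8 (non-canonical CD8+), and Esamhi and Esamlo, fractions of CD11b+ cells. PDC is read here as plasmacytoid dendritic cells. There were 12 WT and 12 ITD libraries in 4 experiment batches. PDC libraries came from batches A and B, both CD8+ subsets from B, C and D, and both CD11b+ subsets from C and D. Every batch had both genotypes of its subsets, 1 library each, which gave 12 pairs. Mice of both genotypes shared the strain and tissue, and the labels name no infection or stimulus for either. The labels do not say how old the mice were, of which sex, or how many stand behind a library.

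Type I interferons bind the receptor of Ifnar1 and Ifnar2, whose kinases Jak1 and Tyk2 activate transcription factors. These bind the interferon-stimulated response element, a DNA motif in the promoters of their target genes. The targets described here sense viral RNA, degrade it, block its translation, hold back virus entry or release, or conjugate the ubiquitin-like protein Isg15 to other proteins. Plasmacytoid dendritic cells are known as strong producers of type I interferon, and many of these genes are also transcribed at a low level without infection.

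Promoter stretches are shown for some of the members named below. RefSeq windows, on build GRCm38.p6, from 250 bases before to 50 after the start of transcription, were matched for 26 of the 36 members. The core of the response element was searched as 2 copies of GAAA with any 2 bases between them, on both strands (on the other strand it reads as 2 copies of TTTC), with overlapping matches allowed. It was found in 14 of the 26 members with a window and in 3.99% of 27025 genes with a window. A longer form, the core with CT after it, is a stricter version of the same motif. It was found in 9 of the 26 members and in 0.303% of genes. A match is a stretch of letters and not a measured binding site. In the stretches that follow, read 5′ to 3′ on the gene's own strand, capitals mark matches of the core.
Isg15: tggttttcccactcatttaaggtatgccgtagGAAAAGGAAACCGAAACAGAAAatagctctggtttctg
Oas1a: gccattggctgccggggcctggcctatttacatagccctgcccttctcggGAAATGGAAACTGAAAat
Oas1g: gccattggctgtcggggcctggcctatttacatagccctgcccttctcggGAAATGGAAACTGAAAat
Ifit1: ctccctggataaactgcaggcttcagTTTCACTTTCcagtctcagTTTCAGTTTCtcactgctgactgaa
Ifit3: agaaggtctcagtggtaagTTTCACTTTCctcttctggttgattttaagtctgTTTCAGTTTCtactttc
Bst2: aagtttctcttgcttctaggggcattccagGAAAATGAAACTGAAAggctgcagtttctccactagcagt
Ifi44: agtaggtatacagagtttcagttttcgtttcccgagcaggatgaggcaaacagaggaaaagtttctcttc

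The Isg15 stretch lies at chr4:156200859-156200928 on the minus strand and holds 3 overlapping matches in 1 run, which starts 78 bases before the start of transcription. The Oas1a stretch (chr5:120907528-120907595, minus strand) and the Oas1g stretch (chr5:120887614-120887681, minus strand) share 67 of 68 bases, and both hold 2 overlapping matches just before the start. The Ifit1 stretch (chr19:34640759-34640828, plus strand) holds 2 separate matches on the other strand. So does the Ifit3 stretch (chr19:34583354-34583423, plus strand), which is identical over 70 bases to a stretch before Ifit3b. The Bst2 stretch (chr8:71537563-71537632, minus strand) holds 2 overlapping matches. The Ifi44 stretch (chr3:151749911-151749980, minus strand) is shown because Ifi44 differed most between genotypes, and its window held no match of the core. Windows of Oasl2, Isg20 and Lgals3bp, also among the members that rose in ITD, held no match either and are not shown.

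Libraries held 11197145 to 22248404 counts, and each member had reads in every library except Oas2 and Rtp4, which were at 0 in 1 or more C_CD8 WT libraries. Levels are given as CPM, the usual scale of a gene's reads relative to its library total, on which a gene can be compared between libraries but not with another gene. The summed level of 10 pDC markers was at least 12805 CPM in PDC libraries and at most 1266 CPM in the others. That of 8 cDC2 markers was 2229 to 2821 CPM in CD11b+ libraries, 1864 to 2412 CPM in PDC, 1353 to 2083 CPM in NC_CD8 and 69.9 to 226 CPM in C_CD8 libraries. This list thus set C_CD8 apart from the other subsets and overlapped between CD11b+ and PDC libraries. The 8 cDC1 markers, Irf8 and Cd8a among them, summed to 3400 to 7013 CPM in C_CD8 libraries and overlapped with PDC libraries, at 4298 to 7507 CPM. Flt3 itself fell by 0.30 ± 0.04 (SE, log2) on average in ITD with each pair of libraries as a block (edgeR, adjusted p = 0.00139, and adjusted p = 0.0504 without the block), and gene counts do not tell its WT and ITD alleles apart. The NC_CD8 WT library of batch C stood apart from its group, with red pulp macrophage markers at 1255 CPM against 192 and 451 CPM and T cell markers at 164 CPM against 45.4 and 103 CPM. The counts of members called that use it are given with and without it, and the share of all genes called is given only with it.

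In WT mice, most of these genes differed in level among the 5 subsets, but 0 were called between Esamhi and Esamlo without a block. PDC had the highest levels of Bst2, Ifi44, Lgals3bp, Trim30a and Mx2, and the CD11b+ subsets had the highest levels of Ddx58, Ifih1, Oas1a, Oas1g, Oas2, Ifitm3 and Rtp4. Mean levels were highest in Esamhi for 15 members, in PDC for 14, in Esamlo for 4, in C_CD8 for 3 and in NC_CD8 for 0. They were lowest in C_CD8 for 17 members and in NC_CD8 for 13, and in each other subset for 2. These orders were not counted over all genes. Where PDC was highest, its libraries overlapped with the second subset for Oasl1, Oasl2, Ifit2, Cmpk2, Samd9l, Usp18, Dtx3l and Parp14. Where Esamhi was highest, its libraries did so for Ifih1, Ifit1, Rsad2, Isg15 and Rtp4. PDC and the CD11b+ subsets shared no batch, so these counts do not separate subset from batch between them. Of the 36 members, 31 differed among the 5 WT subsets (edgeR's quasi-likelihood F test, Benjamini-Hochberg adjusted p under 0.05 over 18093 genes), against 46.7% of all genes tested. With the experiment batch as a block it was 35 members, against 64.1% of genes. Without the NC_CD8 WT library of batch C it was 30 members, and 35 with the block. The exceptions without the block were Parp14 (adjusted p = 0.0527), Ifi35 (0.0879), Parp9 (0.118), Samd9l (0.21) and Dtx3l (0.557). With the block, Parp14, Parp9, Samd9l and Dtx3l passed (adjusted p = 7.66e-06, 0.000739, 0.00169 and 0.00624), and Ifi35 did not (0.0566). Since these are bulk samples of sorted cells, fewer cells of a type and less RNA per cell cannot be told apart. The series' design says that replicates stem from independent experiments, so p-values measure the spread between these, and the 12 pairs may depend on each other within a batch.

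**Figure D1:**
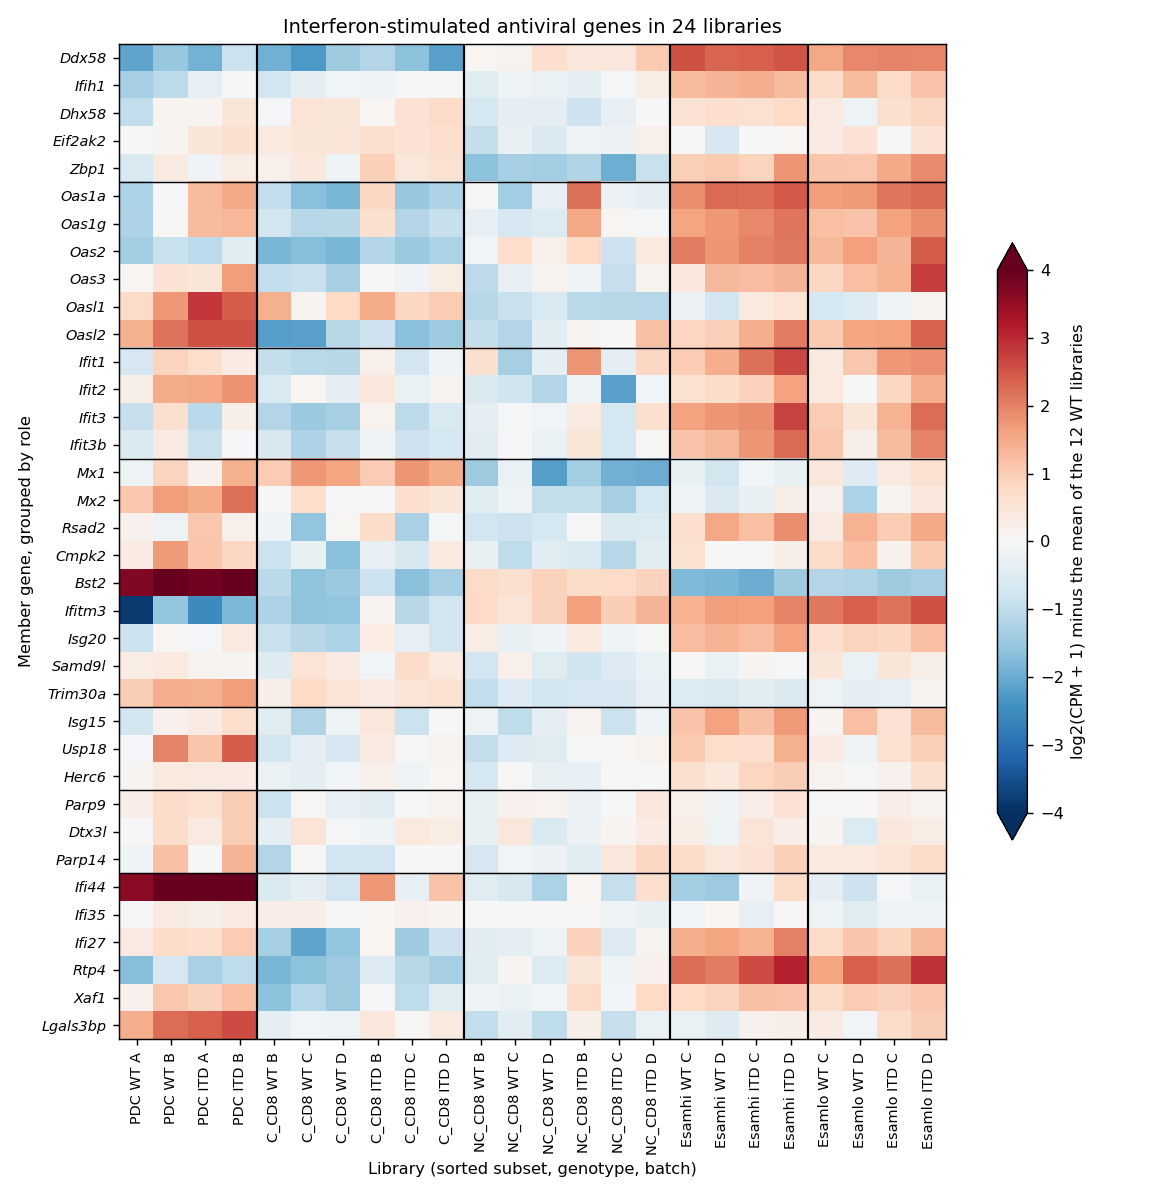
Level of each of the 36 members (rows, grouped by role) in each of the 24 libraries (columns, by subset, genotype and batch). Colour gives log2(CPM + 1) minus the mean of that gene over the 12 WT libraries, and values past 4 in either direction take the end colour. Bst2 and Ifi44 are darkest in PDC, while Ddx58, Oas1a and Rtp4 are highest in the CD11b+ subsets.

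PDC were compared with the mean of the other 4 subsets. Bst2 (tetherin) holds budding virus particles at the cell surface and is also an antigen by which mouse plasmacytoid cells are stained. It was at 1101 and 1401 CPM in the PDC WT libraries. It was at 131 to 160.1 CPM in NC_CD8, 26.9 to 38.8 CPM in C_CD8, 35.7 and 36.6 CPM in Esamlo, and 22.9 and 23.7 CPM in Esamhi. C_CD8 and Esamlo overlapped, and the other neighbours in that order did not. Bst2 was higher in PDC by 4.76 ± 0.16 (log2 fold change ± SE, adjusted p = 3.64e-13). The labels do not name the antibodies of the sort, and Bst2 is in none of the marker lists.

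Ifi44, an interferon-induced gene reported to limit virus replication, was at 41.1 and 78.4 CPM in PDC and at 0.247 to 1.65 CPM in the other WT libraries. It was higher in PDC by 6.04 ± 0.45 (adjusted p = 6.95e-09). Lgals3bp, a secreted glycoprotein that binds galectins, was at 97.4 and 167 CPM in PDC and 16.7 to 43.5 CPM elsewhere (2.19 ± 0.21, adjusted p = 1.81e-07). For both, every PDC library lay above every other WT library.

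Across the 36 members, 14 differed between PDC and the other subsets, 10 higher and 4 lower, against 20.4% of all genes tested higher and 17.8% lower. With batch as a block it was 22, 13 higher and 9 lower, against 24.7% of genes higher and 25.5% lower. Batch A held PDC libraries only, so that block rests on batch B for PDC. Without the NC_CD8 WT library of batch C the counts stayed at 14 (10 higher, 4 lower) and, with the block, 22 (13 higher, 9 lower). Higher in PDC were also the OAS-like genes Oasl2 (2.13 ± 0.37) and Oasl1 (2.02 ± 0.32), Mx2 (1.81 ± 0.33) and Trim30a (1.44 ± 0.14). Trim30a is a TRIM protein that restrains toll-like receptor signalling. The annotation lists Mx2, a GTPase gene, as a polymorphic pseudogene, so its reads need not stand for a working protein. Oasl2 overlapped between subsets, at 20.6 and 35.5 CPM in PDC and up to 23.1 CPM in Esamlo.

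The call of 4 members rested on single libraries. Usp18, the protease that removes Isg15 from proteins, was at 19.1 CPM in the PDC WT library of batch A and 82.8 CPM in that of batch B. Its difference was 1.32 ± 0.32 (adjusted p = 0.00328), but without the library of batch B it was -0.000863 (adjusted p = 1). Cmpk2, a nucleotide kinase, differed by 1.29 ± 0.42 (adjusted p = 0.0213), by 0.43 without that library (adjusted p = 0.638) and with adjusted p = 0.0663 with batch as a block. Parp9 differed by 0.53 ± 0.19 (adjusted p = 0.0398). It fell to 0.33 without PDC WT of batch B (adjusted p = 0.414), and its adjusted p was 0.0524 to 0.0729 without NC_CD8 WT of batch B, Esamhi WT of batch D, or Esamlo WT of batch C or D. Rtp4, a chaperone of receptor transport, was lower in PDC, with a difference of -2.20 ± 0.70 (adjusted p = 0.0188), which was -1.29 without PDC WT of batch A (adjusted p = 0.2).

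Lower in PDC were the cytosolic RNA sensors Ddx58 (RIG-I) and Ifih1 (MDA5), and Ifitm3, which blocks virus fusion at endosomes. Ddx58 was at 1.30 and 2.44 CPM in PDC and at 27.9 to 57.5 CPM in CD11b+ WT libraries, with a log2 difference of -2.95 ± 0.44 from the mean of the others (adjusted p = 3.34e-05). Its level in PDC overlapped with that in C_CD8, the lowest subset, at 1.03 to 2.69 CPM. For Ifih1 the difference was -1.75 ± 0.21 (adjusted p = 2.86e-06) and for Ifitm3 -3.23 ± 0.51 (adjusted p = 6.18e-05). PDC was the lowest subset for both, without overlap with C_CD8 for Ifih1 and with overlap for Ifitm3. With batch as a block, Oas1a (-2.69), Oas1g (-2.33), Rsad2 (-1.33), Isg20 (-0.96) and Isg15 (-0.90) were also lower, and Parp14 (1.68), Mx1 (1.10), Dtx3l (0.98) and Samd9l (0.78) also higher (adjusted p from 1.4e-05 to 0.0348). Of these, Mx1 and Parp14 turned direction without the block when the PDC WT library of batch B was left out (-0.18 and -0.19).

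C_CD8 cells held lower levels of most members than the CD11b+ subsets. Of the 36, 22 were lower and 4 higher in C_CD8 than in the mean of Esamhi and Esamlo, against 12.9% of all genes lower and 13.9% higher. The median log2 difference was -1.34 over the members and 0.03 over all genes. Oas1a makes 2-5A, the messenger that activates RNase L. It was at 0.456 to 1.59 CPM in the 3 C_CD8 WT libraries and at 15.6 to 23.7 CPM in the 4 CD11b+ WT libraries (-4.30 ± 0.93, adjusted p = 0.00213), with no overlap. Ddx58 was at 1.03 to 2.69 CPM in C_CD8 (-4.50 ± 0.41, adjusted p = 3.52e-07). Ifitm3 was at 23.5 to 30.6 CPM in C_CD8 and 198 to 390.4 CPM in CD11b+ libraries (-3.38 ± 0.45, adjusted p = 2.03e-05).

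Oas2, another 2-5A synthetase, had 2 reads in the 3 C_CD8 WT libraries together and 714 in the 4 CD11b+ WT libraries. Its level per library total was 325 times higher in CD11b+ cells, with an exact 95% interval of 89.7 to 2689.8 that covers counting error only. Rtp4 was at 0 to 0.304 CPM in C_CD8 and 9.71 to 17.7 CPM in CD11b+ libraries (-6.50 ± 0.76, adjusted p = 5.54e-06). Also lower in C_CD8 were Ifit3 (-4.00 ± 0.69), Ifit3b (-3.53 ± 0.72), Ifit1 (-3.51 ± 0.86), Oas1g (-3.86 ± 0.85), Oas3 (-3.53 ± 0.65), Oasl2 (-3.50 ± 0.49), Ifi27 (-3.02 ± 0.40), Xaf1 (-2.67 ± 0.33), Isg20 (-2.41 ± 0.33), Cmpk2 (-1.81 ± 0.48), Isg15 (-1.76 ± 0.44) and Ifih1 (-1.60 ± 0.19). Ifit proteins bind viral RNA that lacks a host cap.

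The 4 members higher in C_CD8 were Oasl1 (1.95 ± 0.36), Mx1 (1.79 ± 0.40), Trim30a (1.005 ± 0.147) and Ifi35 (0.38 ± 0.14). Mx1, of the same GTPase family as Mx2, was at 49.7 to 81.5 CPM in C_CD8 and 13.9 to 33.5 CPM in CD11b+ WT libraries. In this comparison, 20 of the 26 calls held without any 1 library and 6 did not. Ifi35 lost its call without C_CD8 WT of batch B or C, Esamhi WT of C or D, or Esamlo WT of D (adjusted p 0.0505 to 0.214). Parp14 and Zbp1 lost theirs without C_CD8 WT of batch B or D or any 1 CD11b+ WT library (adjusted p 0.0566 to 0.163). Rsad2 did without C_CD8 WT of B or C, Esamhi WT of D or Esamlo WT of D (0.0598 to 0.129). Usp18 did without any 1 C_CD8 WT library, Esamhi WT of C or Esamlo WT of C (0.0511 to 0.105), and Herc6 without C_CD8 WT of C, Esamhi WT of C or Esamlo WT of C (0.051 to 0.082).

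The CD8+ subsets also differed from each other. In NC_CD8, 9 members were higher and 7 lower than in C_CD8, against 12.5% of all genes higher and 12.6% lower. With batch as a block, which both subsets share, it was 12 higher and 10 lower, against 20.5% and 21.5% of genes. These 22 held all 16 of the first and added Oas1a (1.66 ± 0.48, adjusted p = 0.0117), Oasl2 (1.25, 0.0135) and Ifit3b (1.92, 0.0161) as higher, and Samd9l (-0.60, 0.00417), Mx2 (-1.05, 0.0336) and Ifi35 (-0.32, 0.0486) as lower. Without the NC_CD8 WT library of batch C, 17 members were called without the block (9 higher, 8 lower) and 20 with it (12 higher, 8 lower). Of those added by the block, Mx2, Ifit3b and Ifi35 then no longer passed (adjusted p = 0.0663, 0.0921 and 0.124). Bst2 was at 131 to 160.1 CPM against 26.9 to 38.8 CPM (2.07 ± 0.21, adjusted p = 1.13e-06), and Ifitm3 at 107 to 142 against 23.5 to 30.6 CPM (2.16 ± 0.44, adjusted p = 0.00129). Ddx58 was higher by 2.56 ± 0.40, Rtp4 by 3.51 ± 0.78 and Xaf1, a pro-apoptotic factor, by 1.43 ± 0.33. Oas2 was at 2.26 to 4.77 CPM in NC_CD8, against 2 reads in all in C_CD8. Lower in NC_CD8 were Mx1 (-2.79 ± 0.45), Oasl1 (-2.60 ± 0.41), the nucleic acid sensor Zbp1 (-2.06 ± 0.34), Trim30a (-1.40 ± 0.16), the kinase Eif2ak2 (PKR, -1.26 ± 0.21) and Dhx58 (LGP2, -0.99 ± 0.25), a regulator of the RNA sensors. Without the NC_CD8 WT library of batch C and without the block, each of these 12 kept its call.

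Ifit3, Ifi27, Isg20 and Lgals3bp had log2 differences of 2.17, 1.31, 1.16 and -0.72 (adjusted p = 0.0303, 0.0228, 0.018 and 0.0499) but rested on single libraries. Ifit3 lost its call without any 1 C_CD8 WT library or NC_CD8 WT of batch C or D (adjusted p 0.051 to 0.102). Ifi27 lost it without C_CD8 WT of C or D or NC_CD8 WT of D (0.0515 to 0.0939), Isg20 without C_CD8 WT of C or D or NC_CD8 WT of B (0.0526 to 0.0896), and Lgals3bp without any 1 C_CD8 WT library or NC_CD8 WT of B or D (0.0888 to 0.171). Between Esamhi and Esamlo 0 members differed by edgeR, against 0.658% of genes, and 0 by DESeq2. At an unadjusted p under 0.05 in edgeR there were 4 members, and 1753 of the 18093 genes tested. With batch as a block, Bst2 was lower in Esamhi (-0.63 ± 0.17, adjusted p = 0.0401) and Isg15 higher (0.75 ± 0.21, adjusted p = 0.0493), against 6.36% of genes.

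**Figure D2:**
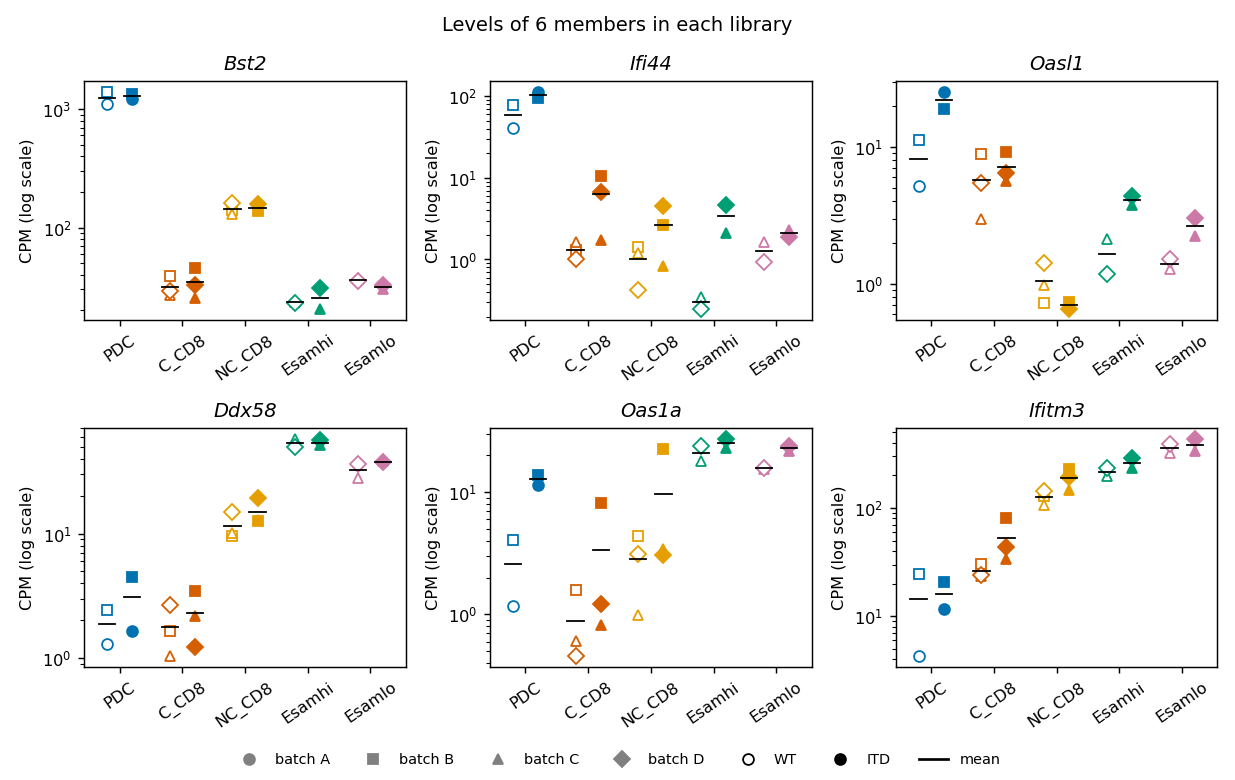
Levels of Bst2, Ifi44, Oasl1, Ddx58, Oas1a and Ifitm3 in CPM (log axis) in each library, by subset. Open symbols are WT and filled symbols ITD libraries, the symbol shape gives the batch, and the bar is the mean of a group of 2 or 3 libraries. Oas1a reaches 22.7 CPM in the NC_CD8 ITD library of batch B, while the other 2 NC_CD8 ITD libraries lie near 3 CPM.

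ITD was then compared with WT, which asks how the mutation changes these genes in each subset. On average over the 5 subsets, all 36 members had a positive fitted difference, with a median of 0.46 on the log2 scale against -0.00155 over all genes tested. Without a block, 2 members rose, Ifi44 and Lgals3bp, against 0.332% of all genes. An unadjusted p under 0.05 was found for 25 members, and for 1564 of the 18093 genes tested. With WT and ITD libraries of the same subset and batch blocked together (the pair block), 22 of the 36 rose and 0 fell, against 4.49% of all genes that rose and 2.34% that fell. These 22 included both of the first. DESeq2 without a block called 9, against 1.7% of genes. Differences were of modest size, between 0.28 and 1.67 (log2) for the members called with the block.

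Ifi44 had the largest difference. In WT and ITD libraries of the same batch it was at 41.1 and 113 CPM (PDC, batch A), 78.4 and 94.5 (PDC, B), 1.30 and 10.5 (C_CD8, B), 1.65 and 1.73 (C_CD8, C), and 1.01 and 6.64 (C_CD8, D). In NC_CD8 it was at 1.44 and 2.63 (B), 1.21 and 0.821 (C), and 0.425 and 4.47 CPM (D). In Esamhi it was at 0.347 and 2.09 (C) and 0.247 and 4.66 (D), and in Esamlo at 1.65 and 2.32 (C) and 0.928 and 1.88 CPM (D). ITD was higher in 11 of 12 pairs, and all ITD libraries lay above all WT libraries in every subset but NC_CD8. The difference was 1.74 ± 0.32 without the block (edgeR, adjusted p = 0.0202) and 1.67 ± 0.33 with it (0.0116). Without the block, the call was lost on leaving out Esamhi WT of batch C or D, Esamhi ITD of D or Esamlo WT of D (adjusted p 0.0614 to 0.0722).

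Lgals3bp was also higher in 11 of 12 pairs. In the PDC pairs WT and ITD were at 97.4 and 189 CPM (A) and 167 and 216 CPM (B), and in Esamlo at 43.5 and 59.0 (C) and 32.0 and 70.1 CPM (D). The exception was NC_CD8 of batch C, at 25.5 and 17.9 CPM. The difference was 0.66 ± 0.13 without the block (adjusted p = 0.0302) and 0.65 ± 0.13 with it (0.0142). Without the block, the call was lost on leaving out any 1 of 15 of the 24 libraries (adjusted p 0.051 to 0.0912). These were PDC WT of batch A, PDC ITD of A or B, C_CD8 WT of B, C_CD8 ITD of B or D, NC_CD8 WT of B or D, Esamhi of either genotype and batch, Esamlo WT of D and Esamlo ITD of C or D.

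Among the RNA sensors and effectors, 2 of 5 rose with the pair block. Ifih1 was at 7.06 and 14.9 CPM in the WT and ITD libraries of PDC batch A, and at 8.76 and 18.0 CPM in those of batch B. In Esamhi its levels were 47.0 and 54.6 (C) and 50.3 and 47.6 CPM (D), so that the genotypes overlapped there and separated in PDC. Its mean difference was 0.38 ± 0.07 with the block (adjusted p = 0.00575; adjusted p = 0.124 without). Dhx58 rose by 0.39 (adjusted p = 0.0156; adjusted p = 0.297 without the block). Eif2ak2 (0.33, adjusted p = 0.0574), Zbp1 (0.42, 0.0787) and Ddx58 (0.35, 0.17) had positive differences that did not pass.

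The OAS family had the highest median difference of the role groups, 1.02 with the block, and 5 of its 6 members rose. Oas1a, whose promoter stretch holds 2 matches next to the start of transcription, was higher in ITD in 12 of 12 pairs. In PDC, WT and ITD were at 1.17 and 11.5 CPM (batch A) and 4.03 and 13.9 CPM (B). In C_CD8 they were at 1.59 and 8.11 (B), 0.611 and 0.815 (C), and 0.456 and 1.22 CPM (D), and in NC_CD8 at 4.37 and 22.7 (B), 0.988 and 3.40 (C), and 3.12 and 3.04 CPM (D). In Esamhi they were at 17.9 and 23.2 (C) and 23.7 and 27.2 CPM (D), and in Esamlo at 15.6 and 21.9 (C) and 15.7 and 24.1 CPM (D). The NC_CD8 pair of batch D was lower in ITD as CPM and higher by 0.03 as log2 CPM after TMM scaling, the scale on which pairs are counted. Genotypes did not overlap in PDC and Esamlo, and did in the other 3 subsets.

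Oas1a rose by 1.31 ± 0.21 with the block (adjusted p = 0.00415; adjusted p = 0.217 without). Oas1g, a near copy of which 45.7% of 50-base words also occur in other genes, rose by 1.40 (adjusted p = 0.00884), and reads of the pair could be split wrongly. Oasl2, a protein with ubiquitin-like domains, rose by 0.96 ± 0.16 (adjusted p = 0.0045 with the block and 0.0864 without). It was at 20.6 and 45.9 CPM in PDC batch A, 35.5 and 46.3 in B, 13.6 and 20.9 in Esamhi batch C, and 14.5 and 33.0 CPM in D. Oas3 (1.07, adjusted p = 0.0274) and Oasl1 (0.75, 0.029) also rose. Oas2 had a difference of 0.97 that did not pass (0.127), and in NC_CD8 of batch C it was at 4.77 CPM in WT and 0.997 CPM in ITD.

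Of the IFIT family, 2 of 4 rose. Ifit1 was at 4.86 and 12.3 CPM in the WT and ITD libraries of Esamhi batch C, and at 6.87 and 17.1 CPM in those of D. In Esamlo it was at 2.81 and 8.57 (C) and 5.10 and 9.28 CPM (D). All ITD libraries lay above all WT libraries in both CD11b+ subsets, while in PDC of batch B the order was turned, at 4.35 and 2.66 CPM. Its difference was 1.36 ± 0.23 (adjusted p = 0.00583; adjusted p = 0.247 without the block), and it was higher in 11 of 12 pairs. Ifit3 rose by 0.76 (adjusted p = 0.0465), and 51.2% of its 50-base words also occur in other genes. Ifit3b, of which 45.0% of 50-base words occur in other genes, had a difference of 0.62 (0.22) and Ifit2, which binds viral RNA and can promote cell death, of 0.64 (0.102).

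Of the 9 restriction factors, 3 rose. Isg20, an exonuclease of single-stranded RNA, was higher in 12 of 12 pairs, at 3.74 and 9.61 CPM in C_CD8 of batch B and 12.9 and 14.5 CPM in Esamlo of C, and rose by 0.46 ± 0.08 (adjusted p = 0.00658; adjusted p = 0.336 without). Ifitm3 rose by 0.50 (0.0238) and Rsad2 (viperin), which makes a chain-terminating nucleotide, by 0.53 (0.0218). Trim30a (0.18, adjusted p = 0.109), Mx2 (0.31, 0.405), Mx1 (0.18, 0.55), Samd9l, a translation inhibitor (0.07, 0.656), Bst2 (0.05, 0.664) and Cmpk2 (0.05, 0.978) did not pass. Bst2, the member with the highest level in PDC by CPM, was at 1230 and 1352 CPM in PDC ITD libraries, within the WT range.

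All 3 genes of Isg15 conjugation rose with the block. Isg15 was higher in 12 of 12 pairs, from 6.34 to 14.2 CPM in PDC of batch A down to 26.0 and 26.1 CPM in Esamhi of C, with a difference of 0.44 (adjusted p = 0.0145; adjusted p = 0.644 without). Usp18 rose by 0.69 ± 0.12 (adjusted p = 0.00583; adjusted p = 0.184 without) and was higher in 11 of 12 pairs. In NC_CD8 it was at 9.89, 13.8 and 14.2 CPM in WT and 19.5, 21.2 and 22.2 CPM in ITD, with no overlap, and in C_CD8 at 11.7, 15.4 and 12.4 against 25.9, 20.6 and 22.5 CPM, also with none. Herc6, the ligase that attaches Isg15 in mice, rose by 0.30 (0.0238). Parp14 (0.36, adjusted p = 0.0304), Dtx3l (0.35, 0.0436) and Parp9 (0.28, 0.039) also rose. Parp9 and the ligase Dtx3l form a complex, and their genes overlap on opposite strands, so that reads of the 2 cannot be told apart where strand was not counted.

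Among the other 6 members, Xaf1 (0.60, adjusted p = 0.0269; higher in 12 of 12 pairs) and Ifi27, a small mitochondrial protein (0.49, 0.0303), rose beside Ifi44 and Lgals3bp. Rtp4 (0.93, adjusted p = 0.0805) and Ifi35 (0.04, 0.774) did not pass. Ifi35 was higher in 5 of 12 pairs.

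**Figure D3:**
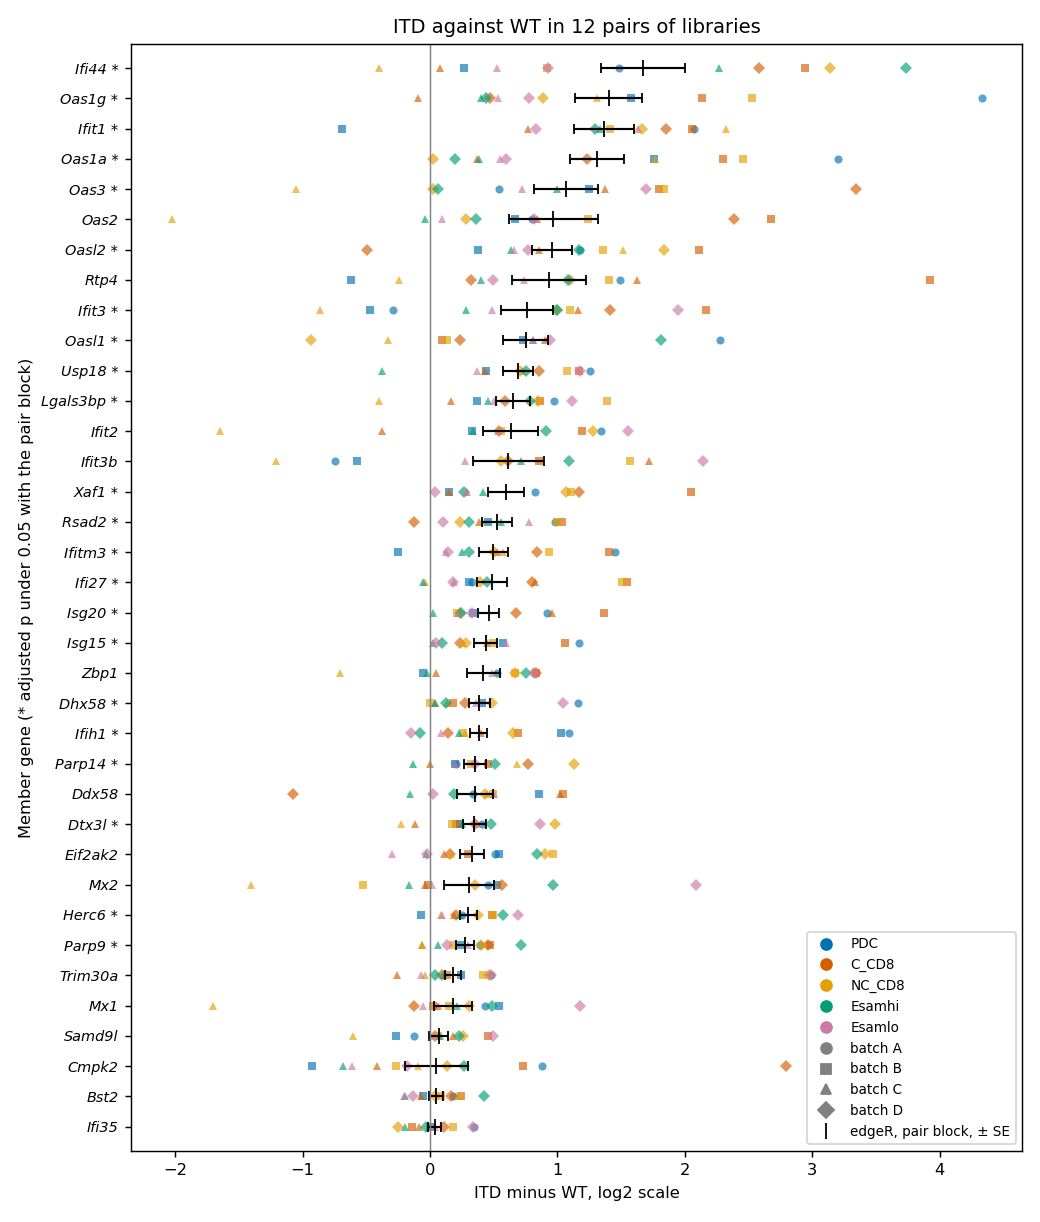
ITD minus WT of log2 CPM (prior count 2) in each of the 12 pairs for each member. Colour gives the subset and shape the batch, the black bar is edgeR's estimate over the 5 subsets with the pair block ± SE, and a star marks an adjusted p under 0.05. Ifi44 has the highest estimate, 1.67, and Ifi35 the lowest, 0.04.

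Over the 12 pairs, 4 members (Oas1a, Isg20, Isg15 and Xaf1) were higher in ITD in all, against 1.09% of all genes tested. In at least 11 pairs 16 members were higher, against 3.71% of genes, and 0 members were lower in as many, against 2.92%. Of the 22 calls with the pair block, 7 held without any 1 pair: Ifih1, Oas1a, Oas1g, Oasl2, Ifit1, Isg20 and Usp18. The other 15 were all lost without the Esamhi pair of batch D (adjusted p 0.0538 to 0.145). Ifi44, Lgals3bp, Dhx58 and Isg15 were lost without that pair only. Ifit3 was lost without any 1 of 10 of the 12 pairs, Parp9 of 9, Dtx3l of 8 and Parp14 of 7. Without the Esamlo pair of batch D 10 of the 22 calls were lost, without the PDC pair of A 9, and without any 1 of the other pairs between 1 and 6. Without batch C, 16 members were called with the block, and without batch D, 5. The share of all genes called is not given for these fits, so the counts do not compare the members with other genes.

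Batches differed in the size of the change. The median difference over the 36 members was 0.81 in the pair of batch A, 0.32 to 0.95 in the 3 pairs of B, -0.02 to 0.33 in the 4 pairs of C and 0.46 to 0.65 in the 4 pairs of D. In NC_CD8 of batch C, 17 of 36 members were higher in ITD, against 48.8% of all genes, and this is the pair whose WT library stood apart on macrophage and T cell markers, whose part in the result was not tested. In the other pairs of batch C, 27 (C_CD8), 25 (Esamhi) and 31 (Esamlo) members were higher, against 53%, 48.4% and 48.4% of genes. In batch D it was 32 (C_CD8), 34 (NC_CD8), 34 (Esamhi) and 32 (Esamlo), against 51.6%, 51.9%, 47.5% and 47.9%. In batch B it was 25 (PDC), 34 (C_CD8) and 33 (NC_CD8), against 50.3%, 45.4% and 48.5%, and in the PDC pair of batch A 33, against 51.2%. Fits within a single batch, added after seeing the data, gave medians of 0.67 in B, 0.20 in C and 0.59 in D, with 35, 26 and 36 members positive. They called 0, 0 and 2 members (Usp18 and Lgals3bp in D). Without the NC_CD8 pair of batch C, 24 members rose with the pair block in place of 22, and without its WT library alone 2 rose without the block, as before. For the fits within a batch, and for those without this pair or library, the share of all genes called is not given.

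**Figure D4:**
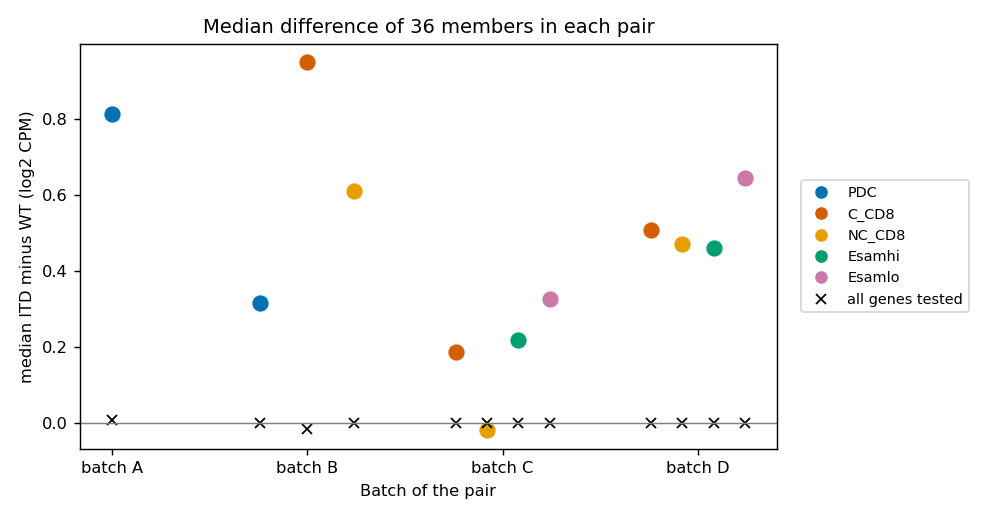
Median ITD minus WT difference (log2 CPM) of the 36 members in each of the 12 pairs, by batch, with colour for the subset. Crosses give the median of all genes tested in that pair, which lies near 0. The pairs of batch C lie between -0.02 and 0.33, below those of A and D.

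Within single subsets, the members' medians were above 0, their size rested on single libraries, and few single genes passed. The median log2 difference was 0.51 in PDC, 0.56 in C_CD8, 0.42 in NC_CD8, 0.35 in Esamhi and 0.53 in Esamlo. With 1 library of the subset left out in turn, it ran from 0.17 to 1.09 in PDC, 0.38 to 0.80 in C_CD8, 0.28 to 0.66 in NC_CD8, 0.16 to 0.47 in Esamhi and 0.28 to 0.61 in Esamlo. In PDC it was 0.17 without WT of batch A, 0.20 without ITD of B and 1.09 without WT of B. In NC_CD8 it was 0.66 without ITD of C, 0.28 without ITD of D, and 0.45, with 32 members positive in place of 30, without WT of C. The lowest values in Esamhi and Esamlo, 0.16 and 0.28, were those without ITD of batch D. Without a block edgeR called 0 members in each, against 0.0608%, 0.0166%, 0.31%, 0% and 0.00553% of genes in that order, and 5, 12, 9, 2 and 2 members had an unadjusted p under 0.05. In the same order, 394, 787, 1331, 303 and 643 of the 18093 genes tested did. DESeq2 called 0, 1, 1, 0 and 0, and in C_CD8 and NC_CD8 it called 0.582% and 1.31% of genes. With the pair block, Ifih1 rose in PDC (1.07 ± 0.17, adjusted p = 0.021; 0.116% of genes rose). Isg20 rose in C_CD8 (1.04 ± 0.17, adjusted p = 0.012; 1.19% of genes rose). In NC_CD8, Oasl2 (1.61 ± 0.32, adjusted p = 0.0136) and Parp14 (0.72 ± 0.17, 0.0343) rose, where 2.38% of genes did. In NC_CD8, Oasl2 was at 3.17, 2.58 and 4.96 CPM in WT and 7.71, 7.04 and 17.3 CPM in ITD, without overlap. These 4 calls rested on single pairs, by fits added after seeing the data. Ifih1 lost its call in PDC without either pair (adjusted p = 0.26 and 0.245), each of which left PDC with 1. Isg20 lost it in C_CD8 without the pair of batch B or C (adjusted p = 0.133 and 0.0622). In NC_CD8, both Oasl2 and Parp14 lost it without the pair of batch C, whose WT library stood apart (adjusted p = 0.0785 and 0.162), and without that of D (0.0975 and 0.226). Without that pair of C, Lgals3bp (1.14 ± 0.22, adjusted p = 0.0371) and Eif2ak2 (0.94 ± 0.20, 0.0484) rose in NC_CD8 in their place. Without the NC_CD8 pair of D it was Oas1a (2.27 ± 0.39, adjusted p = 0.0116), and in C_CD8 without the pair of C it was Xaf1 (1.66 ± 0.31, 0.0371) and Ifi44 (2.88 ± 0.55, 0.0444). In Esamhi and Esamlo 0 members were called with the block, as against 0.0497% of genes in each. An unadjusted p under 0.05 was found for 6 and 9 members, and for 1125 and 2366 of the 18093 genes tested. Without the NC_CD8 WT library of batch C, edgeR without a block still called 0 members in NC_CD8. A test of whether the ITD effect differed among the 5 subsets called 0 members by edgeR, against 0% of genes, and 0 by DESeq2. In edgeR, 2 members had an unadjusted p under 0.05, as did 410 of the 18093 genes tested. The same test also called 0 members with the pair block, against 0.304% of genes. With the block, 4 members had an unadjusted p under 0.05, as did 1802 of the genes tested. Without the NC_CD8 WT library of batch C the test called 0 members without the block.

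The rest of the interferon pathway was read from other lists of genes. Among 17 interferon ligands matched, 8 had 0 reads in the 24 libraries. The 11 alpha and beta genes among them had 28 reads in all, 17 of Ifnb1, so that differences in them were not detectable at this depth. Only Ifng and Ifnk had enough reads to be tested, and neither passed (adjusted p = 0.638 and 0.925; 0.103 and 0.623 with the pair block). Of 6 receptor chains 0 passed without the block, and with it Ifngr1, a chain of the interferon gamma receptor, fell by 0.15 ± 0.04 (adjusted p = 0.0308). Ifnar1 and Ifnar2 had differences of -0.06 and -0.07 (adjusted p = 0.356 and 0.358 with the block). Among genes of signalling from the receptor, those named next did not pass without the block and rose with it: Jak2 (0.29 ± 0.04, adjusted p = 0.0017), Stat2 (0.31 ± 0.05, 0.00297), Irf9 (0.27 ± 0.07, 0.0384) and Tyk2 (0.20 ± 0.05, 0.0417). Their feedback inhibitors Socs1 and Socs3 did not pass on average over the subsets (0.20 and 0.19, adjusted p = 0.355 and 0.221 with the block). Within NC_CD8, Socs3 rose with the block (0.73 ± 0.16, adjusted p = 0.0254) and did not pass without it (0.57, 0.973). Its level there was uneven, at 235 ± 218 CPM in WT and 327 ± 252 CPM in ITD (mean ± SD, n = 3 each). Jak2 (0.40 ± 0.08, 0.0106) and Stat2 (0.44 ± 0.09, 0.0198) also rose in NC_CD8 with the block, and did not pass without it (0.616 and 0.874).

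Of 16 genes that induce interferon, 0 passed without the block. With it Tmem173 (STING), the adaptor of cytosolic DNA sensing, rose by 0.22 ± 0.06 (adjusted p = 0.0386), and Irf7, which drives interferon alpha transcription, had a difference of 0.29 (0.0617). Of 14 genes known chiefly as targets of interferon gamma, 13 were tested and 2 rose without the block, the immunity-related GTPases Tgtp2 (0.81 ± 0.12, adjusted p = 0.00313) and Tgtp1 (0.84 ± 0.14, 0.0106). With the block 6 rose, which added Nlrc5 (0.51 ± 0.05, 0.000213), a regulator of MHC class I genes, and Iigp1 (1.30), Irgm1 (0.41) and Igtp (0.40). The chemokines Cxcl9 and Cxcl10 did not pass (0.08 and 0.11, adjusted p = 0.949 and 0.683).

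Markers of other cells moved with genotype in several lists. The summed cDC2 markers were higher in ITD in 11 of 12 pairs, and in C_CD8 of batch B, where 34 of 36 members were higher in ITD, they were at 83.1 CPM in WT and 226 CPM in ITD. In C_CD8 of batches C and D they were at 69.9 and 108 and at 101 and 108 CPM. The pDC markers in C_CD8 were at 165 to 208 CPM in WT and 251 to 289.9 CPM in ITD, and over all subsets they were higher in ITD in 7 of 12 pairs. That list holds Irf7, also counted above among the genes that induce interferon. Its mean in C_CD8 was 75.8 CPM in WT and 103 CPM in ITD. Markers of T cells, plasma cells and red pulp macrophages were each lower in ITD in 10 of 12 pairs, and those of B cells and cDC1 in 9. Monocyte and neutrophil markers were higher in ITD in 7 pairs, but lower in every CD11b+ pair. In Esamlo they were at 3509 CPM in WT and 2123 CPM in ITD (C) and at 2353 and 1601 CPM (D). In Esamhi they were at 696 and 435 (C) and 645 and 446 CPM (D). NK cell markers were higher in ITD in 6 pairs, and early response genes of cell handling and sex-linked genes in 9 each. The sex-linked sum mixes Xist with Y-linked genes, so its direction does not tell sex. Xist had 0 reads in both Esamhi groups and in Esamlo ITD, while each Y-linked gene of the list had reads in every group. No marker of the cDC2 and pDC lists was at 0 in any group. The part of these cells and of handling in the members' differences was not tested.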

How the data were processed

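The raw counts analysed are those the authors deposited, as whole reads per Ensembl gene in 24 libraries. A normalized table was not used here. Per the labels' protocols, RNA came from PicoPure columns, in part after Trizol, and the SMART-seq v4 kit amplified cDNA from small inputs. Build mm10, bcl2fastq 1.8.4, DESeq2 1.8.2 and Bowtie2 are named in the submitters' processing notes. How reads were counted, with which annotation and with or without strand, is not stated there, so genes that overlap on opposite strands are uncertain.

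Genes were filtered with edgeR 4.0.16 (R 4.3.3; filterByExpr, minimum count 10), which left 18093 genes with all 36 members. They were tested with TMM scaling and a quasi-likelihood fit over 10 groups without a block (14 residual degrees of freedom). A call is a Benjamini-Hochberg adjusted p under 0.05 over all genes tested. Each genotype comparison was repeated with the pair of libraries as a block (7 residual degrees of freedom) and each WT comparison with batch as a block (11). The pairing comes from the batch letters in the labels: the deviations of paired libraries from their group means correlated across genes, with r from 0.134 to 0.646. The 12 pairs give 9 such values, since in groups of 2 libraries the deviations mirror each other. The code was tested on simulated counts. Replicates were no copies of each other: the chi-square of their counts was at least 13.3 per degree of freedom. Depth was 11197145 to 22248404 counts per library. Alternatives were RLE scaling, no filter, DESeq2 1.42.0, summed near copies, only the groups of a comparison, and leaving out libraries, pairs or batches.

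The members and lists were chosen with earlier results of these data known. All members are named by role. Full statistics go to those called without a block (up to 10 by size), and where fewer than 3 were called, to up to 6 more by adjusted p with the block. Other genes come from lists of the interferon pathway and of markers. One gene of the signalling list is not reported here.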

Additional observations from a re-analysis of the deposited data

How the results depend on the processing

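For ITD against WT over the 5 subsets, the count of members called was 2 and became 22 with the replicate block (the pairing by batch), 9 with DESeq2, 1 without batch A, 6 without B, 0 without C and 0 without D. With the block it was 13 without batch A, 13 without B, 16 without C and 5 without D, and 7 to 24 with 1 pair left out. Leaving out 1 library gave 0 to 4 without the block. It was 0, 0 and 2 within batch B, C and D alone (settings chosen after seeing the data), 2 with RLE scaling, 3 with no filter on low counts and 2 with near copies summed. In single subsets the count of 0 became 1 in PDC, 1 in C_CD8 and 2 in NC_CD8 with the block, and 1 in C_CD8 and 1 in NC_CD8 with DESeq2. With the block and 1 pair of the subset left out (also chosen after seeing the data), it was 0 in PDC, Esamhi and Esamlo, 0 to 2 in C_CD8 and 1 to 2 in NC_CD8. For WT PDC against the others 14 became 22 with the replicate block, also without the NC_CD8 WT library of batch C (chosen after seeing the data), and for Esamhi against Esamlo 0 became 2. In WT PDC against the others, leaving out 1 PDC library in turn (batch A, then batch B) gave 0.85 and -0.18 for Mx1, 2.00 and -0.000863 for Usp18, and 1.05 and -0.19 for Parp14. The cause of these changes was not tested. Groups of 2 or 3 libraries limit the precision, and where 1 was left alone in its group it was assumed to vary like the others. The counts in this section stand without the share of all genes called, so they do not compare the members with other genes.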

Other observations

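Per length of exons, so that genes can be compared with each other, a single gene made up much of the members' summed level in most WT subsets. In PDC, Bst2 was at 1386 ± 235 CPM per kilobase (SD, n = 2), 79.4% of the sum over the 36 members, followed by Trim30a (3.49%). In Esamhi and Esamlo the first place belonged to Ifitm3, at 320.0 ± 40.6 and 525 ± 71.8 CPM per kilobase, 48.1% and 63.1% of the sums. In NC_CD8 Ifitm3 (36.4%) and Bst2 (31.2%) led together. In C_CD8 no member led by far: Ifi35 held 16.3%, Ifitm3 13.4%, Trim30a 13.1% and Bst2 12.3%. Ifi35, one of the 2 members higher in ITD in only 5 of 12 pairs, was among the first 4 in each WT subset.

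Of the 26 members with a promoter window, 14 held the core of the response element, and 9 of these rose in ITD with the pair block. Of the 12 without a match, 8 rose. These are counts over the members found in the table of windows, with no test.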
